A study of Mus musculus with 11 samples.

Results

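Extracellular ATP acts on cells through P2X receptors, which are ion channels, and P2Y receptors, which couple to G proteins, and it can leave cells through pannexin channels. The transcript tables of this series hold rows for 4 such receptor genes, P2rx4, P2ry1, P2ry6 and P2ry14, and for the ATP-release channel gene Panx1. These 5 genes were taken as every row whose gene symbol is one of the 5 names, which gave 7 transcripts of 2510 listed, or 5 of 1967 gene symbols. The choice by symbol used no measured value, but a gene has a row only where it was listed, and 6 of the 7 transcripts stand in the table of significant genes. Those 6 were thus selected on the same libraries that are described here.

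The cells were primary cultures of enteric glia (EGCs), the support cells of the gut nervous system, from mice of the strain labelled BL6, with no transgene named. According to the study's methods they came from the stripped muscle layer of the small bowel of adult animals, grew first as neurospheres and were then differentiated on coated plates. ATP was given at 100 µM for 6 h (ATP, 6 libraries), and the comparison group is labelled Control (Control, 5 libraries). The treatment field of the labels names ATP for all 11 libraries, so the groups come from the library titles. Nothing in the labels says which libraries came from separate animals.

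The tables give 1 mean per group and 1 total per transcript, all of them the authors' values, and no value per library. The depth of each library, the spread between libraries and the overlap of the groups are therefore unknown here, and the differences below are given with no standard deviation, interval or test. The p-values in the authors' tables come from their own comparison and were not used. The depth-scaled mean, in which 4 of the 5 transcript tables are written, has no stated unit. The 2 scales were compared over 49 transcripts listed on both, with Gfap left out because its totals do not equal the weighted sum of its means. For these, 1 depth-scaled unit equalled a median of 11.7 estimated reads per library for ATP (range 10.5 to 12.9) and 10.1 for Control (9.67 to 11.2). Library codes fell into 3 series, of which 1 held 3 ATP libraries, 1 held 2 Control libraries and 1 held 3 of each, so the series and ATP cannot be fully told apart.

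P2X4, encoded by P2rx4, is a calcium-permeable cation channel opened by ATP. P2Y1, encoded by P2ry1, is a receptor for ADP that couples to Gq proteins and so to phospholipase C and calcium release from stores. P2Y6, from P2ry6, couples to the same proteins and prefers UDP. P2Y14, from P2ry14, binds UDP-glucose and UDP and couples to Gi proteins. Pannexin 1, from Panx1, forms large-pore channels in the plasma membrane through which ATP can pass, and glia of the gut are known for signalling to neurons and to each other by nucleotides and calcium waves.

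In these tables the 3 receptor genes P2rx4, P2ry6 and P2ry14 had lower means with ATP than in Control, and P2ry1 and Panx1 had higher means. P2ry14-001 showed the largest ratio difference of the 7 transcripts, at 7.67-fold lower. The transcripts of P2rx4 and P2ry6 lay between 2.16-fold and 2.41-fold lower, P2ry1-002 was 2.28-fold higher and Panx1-002 1.81-fold higher. P2ry1-003, a transcript listed only in the MAPK table, was 1.25-fold lower and did not pass the fold of 1.5 that the study uses.

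The bases just before the annotated start are shown for the genes on both sides of this split, 1 window for each gene, so that the start regions of P2ry14 and P2rx4 can be set beside those of P2ry1 and Panx1. RefSeq windows on GRCm38.p6 were at hand for 4 of the 5 genes (not P2ry6), 7 windows in all because P2ry14 has 4 starts, of which the most upstream is printed. Each run is the 250 bases upstream of the start, 5′ to 3′ on the gene's strand. Capitals mark letters that match a searched motif on either strand. The windows are chr5:122707294-122707543 on the plus strand (P2rx4), chr3:59153493-59153742 on the minus strand (P2ry14), chr3:61002535-61002784 on the plus strand (P2ry1) and chr9:15045479-15045728 on the minus strand (Panx1).
P2rx4: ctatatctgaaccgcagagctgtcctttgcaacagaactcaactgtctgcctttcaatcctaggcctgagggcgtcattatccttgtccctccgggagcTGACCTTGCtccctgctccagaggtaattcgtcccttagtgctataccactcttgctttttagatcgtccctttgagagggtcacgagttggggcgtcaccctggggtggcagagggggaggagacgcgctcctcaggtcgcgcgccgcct
P2ry14: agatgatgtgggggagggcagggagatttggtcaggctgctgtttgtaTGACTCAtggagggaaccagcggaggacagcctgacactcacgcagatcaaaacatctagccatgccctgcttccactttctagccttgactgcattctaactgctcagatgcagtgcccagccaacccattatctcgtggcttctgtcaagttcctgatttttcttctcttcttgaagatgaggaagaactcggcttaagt
P2ry1: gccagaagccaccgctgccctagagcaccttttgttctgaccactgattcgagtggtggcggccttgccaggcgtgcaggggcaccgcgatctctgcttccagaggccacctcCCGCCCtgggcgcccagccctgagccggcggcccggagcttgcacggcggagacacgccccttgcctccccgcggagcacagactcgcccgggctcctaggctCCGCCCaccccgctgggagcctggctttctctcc
Panx1: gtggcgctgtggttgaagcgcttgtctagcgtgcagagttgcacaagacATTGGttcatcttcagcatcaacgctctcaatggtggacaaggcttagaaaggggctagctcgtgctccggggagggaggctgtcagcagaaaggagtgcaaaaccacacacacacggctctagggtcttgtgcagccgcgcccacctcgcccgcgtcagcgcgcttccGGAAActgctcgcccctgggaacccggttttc

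Of the 4 printed windows, that of P2ry1 was the richest in C and G, with a GC content of 70.8% and 20 CpG dinucleotides, and that of P2ry14 the poorest, with 4 CpG. Panx1 (59.6%, 17 CpG) and P2rx4 (57.2%, 13 CpG) lay between them, and over all 32851 windows the median was 52.4% and 6 CpG. The searched motifs, each read on both strands, were AP-1 (TGANTCA), the cAMP response element (TGACGTCA), NFAT (GGAAA), the GC box (GGGCGG), the CCAAT box (CCAAT), the TATA box (TATAAA) and the antioxidant response element (TGACNNNGC). The P2ry14 window held 1 AP-1 match, TGACTCA, with its first base at position -202 from the start, and 6.75% of all windows hold such a match. The P2rx4 window held 1 antioxidant response element match, TGACCTTGC, at position -151, found in 10.2% of all windows. P2ry1 had 2 GC boxes (in 32.7% of all windows), and Panx1 had 1 CCAAT match (33.8%) and 1 NFAT match (55.6%). No printed window held a cAMP response element (1.55% of all windows) or a TATA box (12.4%). Of the other 3 P2ry14 windows, that from 59131329 held a second form of the AP-1 letters, TGAATCA, and 1 NFAT match. The window from 59130763 held 2 NFAT matches, 2 CCAAT matches and 1 TATA box, and that from 59131119 held 1 NFAT match. Such matches describe letters and say nothing of binding.

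P2rx4 is the only gene of 7 for P2X subunits with a row in the depth-scaled tables. For P2rx4-002, its main listed transcript, the authors' mean was 16.0 with ATP and 34.6 in Control on the depth-scaled values, which is 2.16-fold lower (log2 ratio -1.11). For P2rx4-001 the authors' means were 2.79 and 6.71, which is 2.41-fold lower (log2 ratio -1.27). Scaled back to reads, P2rx4-002 stood for about 188 reads per library with ATP and 350 in Control, and P2rx4-001 for about 32.6 and 67.9. Both transcripts were thus lower with ATP by a like fold, at levels that differ several-fold. P2rx4-002 made up 85.2% of the summed means of the 2 transcripts with ATP and 83.8% in Control, so the split between them was nearly the same in both groups. Their sum was 18.8 with ATP and 41.3 in Control, or 2.20-fold lower. A 3′ method reads the end of a transcript, so isoforms with a shared last exon are hard to tell apart, and each value belongs to the name that the authors assigned. Because these are bulk RNA samples, fewer cells of a type and less RNA per cell cannot be told apart, here and for each gene below.

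**Figure D1:**
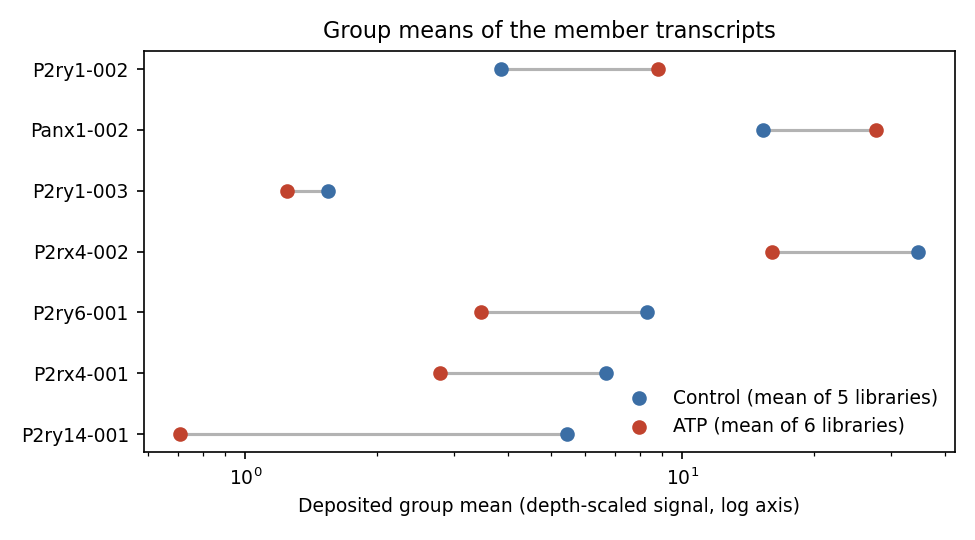
Depth-scaled group means of the 7 transcripts, on a log axis in the authors' units, with 1 point for ATP (6 libraries) and 1 for Control (5 libraries); the points are the authors' means and have no error bars because values per library were not analysed here. P2ry1-002 and Panx1-002 have the ATP point to the right of the Control point, the other 5 transcripts to the left, and the widest gap is that of P2ry14-001, from 5.45 in Control to 0.710 with ATP.

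Of the 7 P2Y receptor genes, 3 had rows. P2ry14 had the lowest ATP mean of all 7 transcripts, 0.710 with ATP against 5.45 in Control on the depth-scaled values (log2 ratio -2.94). Scaled back to reads, these means stand for about 8.32 reads per library with ATP and about 55.1 in Control, so the ratio rests on a low ATP value. When 1 was added to each mean as a pseudocount, P2ry14-001 was 3.77-fold lower in place of 7.67-fold. Only 5 of the 2071 transcripts in the table of significant genes had a lower ratio than P2ry14-001, with Npy1r-001, a neuropeptide Y receptor, lowest at 16.7-fold lower. The neighbours of P2ry14-001 in that order were Col4a1-008, a chain of basement membrane collagen, at 7.73-fold and Snapin-003 at 7.12-fold lower. Without a spread between libraries, it cannot be said whether these neighbours differ.

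P2ry6-001 had a mean of 3.47 with ATP and 8.29 in Control, which is 2.39-fold lower (log2 ratio -1.26). In reads this was about 40.6 and 83.9 per library. Its fold lies close to that of P2rx4-001 on means of like size. The same values stand in the MAPK table and in the table of significant genes.

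P2ry1-002 had a mean of 8.78 with ATP and 3.85 in Control, which is 2.28-fold higher (log2 ratio 1.19). In reads this was about 103 and 38.9 per library. Of the 3 P2Y genes with rows, P2ry1 was the only one whose main listed transcript was higher with ATP. Its other transcript, P2ry1-003, had means of 1.24 and 1.55, about 14.5 and 15.7 reads per library, and a log2 ratio of -0.32. The 2 transcripts thus lay on opposite sides of 1, but the fold of P2ry1-003 is small and without a test no direction can be given for it. P2ry1-002 made up 87.6% of their summed means with ATP and 71.3% in Control. Summed, P2ry1 had 10.02 with ATP and 5.39 in Control, 1.86-fold higher, so the gene's ratio is lower than that of its main transcript.

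Panx1-002 had a mean of 27.7 with ATP and 15.3 in Control, 1.81-fold higher (log2 ratio 0.86). In reads this was about 325 and 155 per library, the highest ATP level of the 7 transcripts. Panx1 thus had its mean on the opposite side from P2rx4, P2ry6 and P2ry14. The fold was the smallest among the 6 transcripts in the table of significant genes.

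The order of the transcripts by level was not the same in the 2 groups. By the Control mean it was P2rx4-002, Panx1-002, P2ry6-001, P2rx4-001, P2ry14-001, P2ry1-002 and P2ry1-003. With ATP, Panx1-002 came first, followed by P2rx4-002, P2ry1-002, P2ry6-001, P2rx4-001, P2ry1-003 and P2ry14-001. P2ry1-002 moved from place 6 to place 3 and P2ry14-001 from place 5 to place 7. Libraries made from transcript ends give about 1 fragment per transcript, so these levels were compared without division by length, and the factor between the 2 scales was nearly the same for the 49 shared transcripts without Gfap. Which neighbours in either order differ beyond their spread cannot be said without values per library.

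Among the 6 transcripts in the table of significant genes, 2 were higher and 4 lower with ATP. Of all 2071 transcripts listed there, 47.8% were higher and 52.2% lower by at least 1.5-fold, so every row passes this fold and the share past it is no result about the 5 genes. The median ratio of the 6 transcripts was 0.441, against 0.644 over all rows. The table holds rows on both sides with a gap around 1, so a median between them depends on the split. The median of its lower rows was 2.24-fold lower and that of its higher rows 1.90-fold higher, and P2rx4-002, P2rx4-001 and P2ry6-001 lay near the former. In the MAPK table, 1 of the 3 transcripts was higher, 1 lower and 1 neither, where 26.8% of its 228 transcripts were higher and 36.0% lower. So few transcripts cannot be set apart from these shares, and nothing is read from the split.

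**Figure D2:**
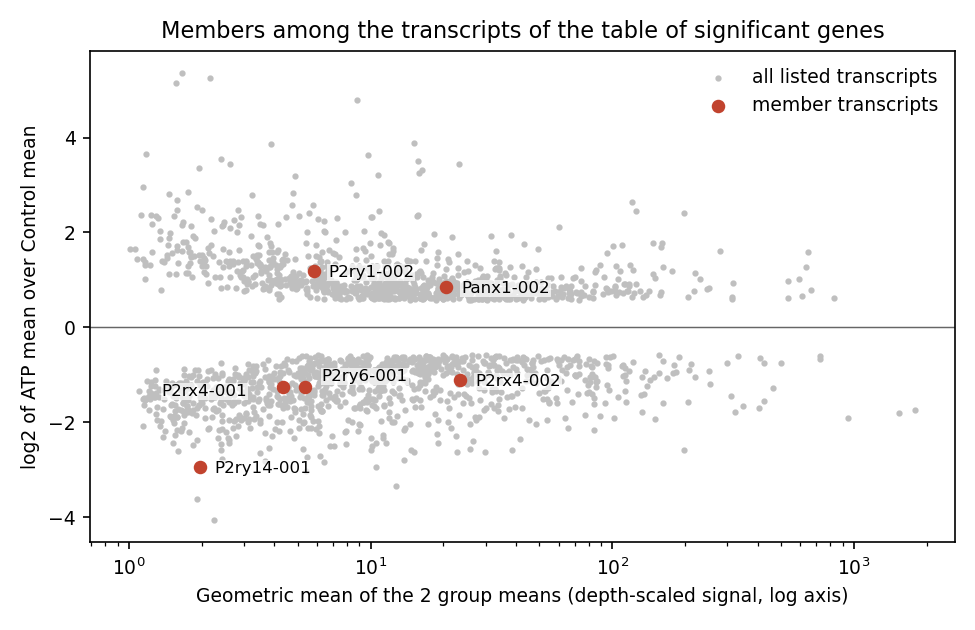
The 2071 transcripts of the table of significant genes, by the geometric mean of the 2 group means (depth-scaled signal, log axis) and by the log2 ratio of the ATP mean over the Control mean, with the 6 transcripts of the 5 genes in red and named. No listed transcript lies between the 1.5-fold limits. P2ry14-001 lies 6th from the lowest ratio.

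By level, the transcripts were spread over much of the range of listed transcripts, whose totals ran from 12.9 to 22315 with a median of 127. P2rx4-002 (total 269) and Panx1-002 (total 243) lay above that median, and P2ry1-002 (71.9), P2ry6-001 (62.3), P2rx4-001 (50.3) and P2ry14-001 (31.5) below it. The total of P2ry1-003 was 15.2. The receptors with low totals are thus those whose ratios rest on the fewest reads. Of the total of P2ry14-001 over all 11 libraries, 13.5% came from ATP libraries, against 73.3% for P2ry1-002 and 68.5% for Panx1-002.

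The 2 scales differ between the groups, since 1 depth-scaled unit stands for 1.16 times as many reads in ATP as in Control (range 0.977 to 1.27). Without depth scaling, each ratio of ATP to Control would be larger by this factor, a shift of 0.21 on the log2 scale. P2ry14-001 would then be 6.62-fold lower, P2rx4-001 2.08-fold lower, P2ry6-001 2.06-fold lower, P2rx4-002 1.86-fold lower, P2ry1-002 2.64-fold higher and Panx1-002 2.10-fold higher. Each of the 6 transcripts stayed on its side of 1 and past the fold of 1.5. P2ry1-003 was 1.08-fold lower on this scale.

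**Figure D3:**
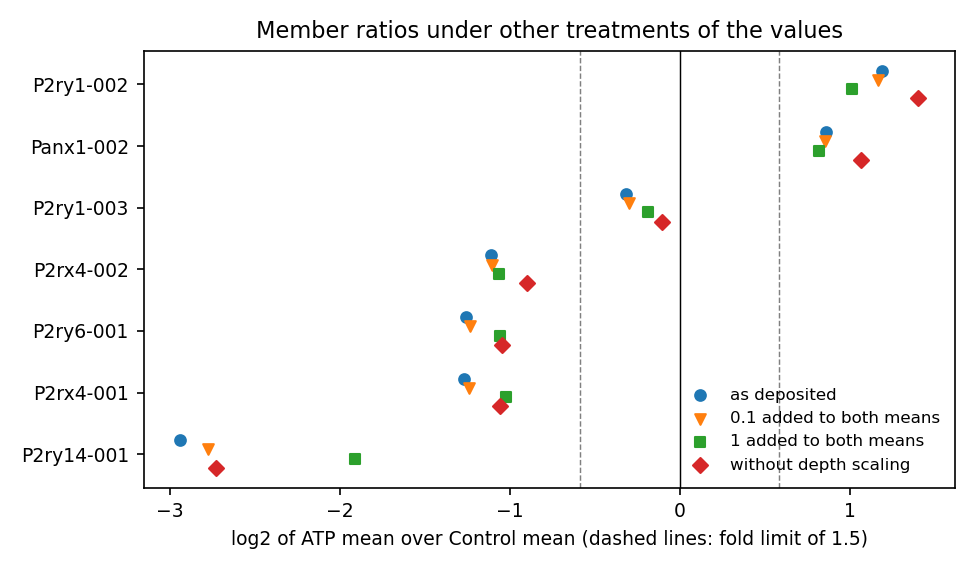
Log2 ratio of the ATP mean over the Control mean for each of the 7 transcripts, as deposited, with a pseudocount of 0.1 or 1 on each mean, and without depth scaling. The 6 listed transcripts keep their side of 1 in every setting shown, which a pseudocount on both means cannot change. P2ry14-001 moves most, from a ratio of 0.130 to 0.265 with a pseudocount of 1. Dashed lines mark the fold of 1.5.

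The rest of the purinergic system was counted in lists of 62 genes, members included. Of these, 10 had a row in the depth-scaled tables, with 4 higher and 6 lower, and of the 57 that are not members 5 had rows, 2 higher and 3 lower. Over the same tables, 48.4% of 1875 gene symbols had a transcript at least 1.5-fold higher and 50.9% one at least 1.5-fold lower. A gene without a row can have been unlisted for any level, so no value is given for it. No row was found for 6 of the 7 P2X subunits, 4 of the 7 P2Y receptors or any of 11 ectonucleotidases, the enzymes that break down nucleotides outside cells.

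Of the 4 adenosine receptors, only Adora2b, the low-affinity receptor that couples to Gs proteins, had a row. Adora2b-001 had a mean of 6.20 with ATP and 23.1 in Control, 3.74-fold lower. Adk-201, for the kinase that turns adenosine into AMP, was 1.57-fold lower (19.1 and 29.9), and 1.36-fold lower without depth scaling, which is under the fold of 1.5. The adenosine receptor with a row was thus on the same side as P2rx4, P2ry6 and P2ry14.

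Among 17 genes for ATP release, Panx1 and Lrrc8d, a subunit of volume-regulated anion channels, had depth-scaled rows and both were higher. Of the 1875 gene symbols with depth-scaled rows, 48.4% had a transcript at least 1.5-fold higher, so nothing is read from this count. Lrrc8d-001 had means of 10.1 and 5.57 and Lrrc8d-002 of 9.41 and 5.17, each 1.82-fold higher and near the fold of Panx1-002. Gja1-201, for the hemichannel protein connexin 43, stands only in the gliosis table of estimated counts, with 244 and 109.8 per library, or 2.23-fold higher and 1.92-fold higher after depth adjustment. UDP-glucose, the ligand of P2Y14, is made by the product of Ugp2 and oxidised by that of Ugdh. Ugdh-001 was 3.32-fold higher (200.5 with ATP, 60.4 in Control). Ugp2-001 was 1.53-fold lower (39.96 and 61.1), and 1.32-fold lower without depth scaling. Of the 6 genes listed for UDP-glucose handling, only these 2 had rows. A link between them and P2ry14 was not tested.

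Of 97 genes for G proteins, their regulators, phospholipase C, calcium channels, and calcium-dependent kinases and related signalling enzymes, 9 had rows. The lists were not limited to genes downstream of the P2Y receptors. Of the 9 genes, 7 were higher and 2 lower, against the 48.4% higher and 50.9% lower over all 1875 gene symbols with rows. With so few rows, nothing is read from this split. Plcb1, the phospholipase C activated by Gq proteins, had 3 transcripts that were higher. Plcb1-005 was 6.46-fold higher (4.01 with ATP and 0.621 in Control), Plcb1-003 1.85-fold and Plcb1-001 1.68-fold. The Control mean of Plcb1-005 is below even the ATP mean of P2ry14-001 (0.710), so its ratio rests on a low Control value. Rgs2-001, which shortens signalling by Gq proteins, was 2.70-fold higher (34.5 and 12.8). Gnas, the gene for the Gs alpha subunit, had transcripts at 2.62-fold and 1.91-fold higher. Plcd3-002 was 1.75-fold higher, and Orai2-001, a calcium channel subunit of the plasma membrane, 1.82-fold higher. Lower means were found for Itpr2-001, an IP3 receptor, at 1.64-fold and Plcg1-003 at 1.67-fold, and without depth scaling these were 1.42-fold and 1.44-fold lower.

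**Figure D4:**
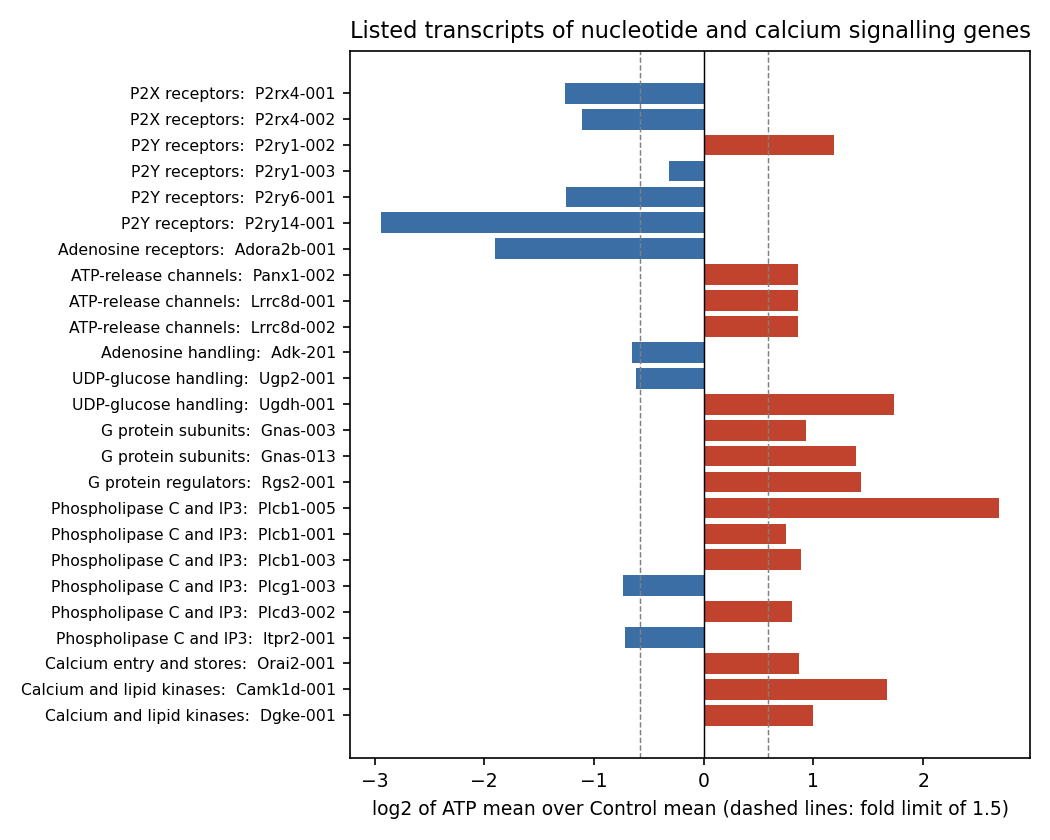
Log2 ratio of the ATP mean over the Control mean, as bars from 0, for depth-scaled transcripts of the purinergic, G protein and calcium lists, grouped by role; red bars are higher with ATP, blue bars lower, and dashed lines mark the fold of 1.5. Only genes with rows are drawn. The 1 P2X gene of 7 and the 1 adenosine receptor gene of 4 lie below 0. The 2 release channel genes of 17 lie above 0, and the 3 P2Y genes of 7 have transcripts on both sides. No direction is read from this for a family.

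In the table of gene ontology (GO) terms, which counts genes and does not name them, 2023 of 14784 annotated genes (13.7%) were in the authors' list. Of 18 genes annotated to purinergic receptor activity, 5 were in it (27.8%), and of 14 annotated to nucleotide receptor activity 4 (28.6%). For G protein-coupled purinergic nucleotide receptors it was 3 of 8 (37.5%), and for channels gated by extracellular ATP 1 of 6 (16.7%). The counts are small and the terms are nested, so these are not separate results. The receptor genes described here were taken because they have rows in the authors' tables. These shares may therefore count the same genes again, and they lend no separate support. The counts cannot be tied to a direction.

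For each gene, the transcripts of other genes with the most similar pair of group means were found, by distance in log2 ATP mean and log2 Control mean. This compares 2 means only. Panx1-002 was nearest to Rnf168-201 (distance 0.00421) and Ino80c-002 (0.0142), and P2ry1-002 to Kif21a-201 (0.0259) and Ctage5-012 (0.0414). P2rx4-002 was nearest to Itgb5-001 (0.0551) and Cercam-001 (0.0829), and P2ry6-001 to Rmdn2-201 (0.0565) and Bdnf-004 (0.0681). P2ry14-001 had no near match, the closest named here being Cys1-201 at 0.351.

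Markers of the cell types that such a culture may hold were counted in the same tables. Of 9 fibroblast marker genes, 4 had depth-scaled rows and all 4 had a transcript lower with ATP, as had Dcn in the gliosis table. Fn1-009 (1.32 and 1.46) did not pass the fold. Over all 1875 gene symbols with depth-scaled rows, 50.9% had a transcript at least 1.5-fold lower and 48.4% one higher, so nothing is read from this count. The 11 depth-scaled rows of these 4 genes summed to 1685 with ATP and 5110 in Control, 3.03-fold lower. The summed P2rx4 was 2.20-fold, P2ry6 2.39-fold and P2ry14 7.67-fold lower, and P2ry1 and Panx1 were higher. The most abundant of them, Col3a1-001, had means of 826 and 2870, and Fn1-012 of 691 and 1793. Of 7 smooth muscle markers, 1 was lower (Lmod1-001, 1.28 and 3.27), and of 8 neuron markers 2 were higher, Uchl1-002 (155 and 82.1) and Ret-002 (14.2 and 8.73). The other transcripts of these 2 genes, Uchl1-001 (59.6 and 40.2) and Ret-001 (12.4 and 10.3), did not pass the fold of 1.5 on the depth-scaled values. No depth-scaled row was found for the 10 macrophage or 5 endothelial markers, but Cd68-001 (43.05 and 22.6 estimated counts) and Cd14-201 (22.5 and 41) stand in the gliosis table. Of 11 enteric glia markers, Gfap and Nes had rows. Nes-001 was 2.06-fold higher in estimated counts (3527 and 1711) and 1.78-fold higher after depth adjustment. Nes-003 had 1129 and 1091, a ratio of 1.03, or 0.894 after depth adjustment, and passed the fold of 1.5 on neither scale. Gfap-001 was listed as 1.76-fold higher, but the totals of the Gfap rows fit only when the group means change places, so no direction is taken from these rows. The other 9 glia markers, Sox10 and S100b among them, have no row, so the labelled cell type could not be checked from them. The part of these markers in the values of the 5 genes was not tested.

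By the GENCODE M21 annotation of GRCm38, P2rx4 (chromosome 5, 122707544 to 122729738, plus strand) and Panx1 (chromosome 9, 15002128 to 15045478, minus strand) overlap no other gene. P2ry1 (chromosome 3, 61002795 to 61008982, plus strand) overlaps the antisense gene Gm37035. P2ry14 (chromosome 3, 59113855 to 59153618, minus strand) overlaps Med12l on the other strand, and P2ry6 (chromosome 7, 100937630 to 100974649, minus strand) overlaps Gm44545. None of these 3 overlapping genes has a row. The kit marks strand, but whether strand was used in counting is not stated in these sources, so reads from an overlapping gene cannot be told apart from those of these receptors. Transcript names such as P2rx4-002 are not those of GENCODE M21, and the exons they hold were not mapped.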

How the data were processed

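RNA of primary mouse enteric glia was sequenced with the QuantSeq 3′ mRNA-Seq kit (FWD), with 6 libraries for ATP and 5 for Control. The submitters' processing notes name Partek, while aligner, build, annotation and scaling are not given in the sources used. The authors deposited 6 tables. The deposited values of the gliosis table appear to be estimated counts with no scaling for depth. The 4 remaining transcript tables hold a deposited signal that, from the values, appears scaled for depth and is called depth-scaled, except the Gfap-201 row, which repeats that of the gliosis table. For all 9 rows of the 5 genes, the total equalled the sum of both means weighted by their libraries (relative tolerance 1e-06), and 3 of 3020 rows, all of Gfap, did not. The other columns hold the authors' p-values, adjusted p-values, ratios and fold changes, and the enrichment scores of the GO table, and they were not used. Libraries have no values of their own here, so depth and precision per library are unknown.

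The ratio of the authors' means was computed here with Python 3.11.15, pandas 2.3.3 and numpy 2.4.6, and a fold of 1.5 was taken from the study's methods. Reads per library were approximated by the median factor between the scales. Genes were grouped into lists, and the genes, lists and rules were chosen with earlier results of these data known. Named were all rows of the 5 genes, list genes with a fold of at least 1.5, the 2 nearest transcripts per gene (1 of them is not reported here), and up to 2 markers per list. Positions came from GENCODE M21, in which 1908 of 1967 symbols were found, and start windows from RefSeq. Alternatives were pseudocounts, other limits and no depth scaling. The code was run on simulated group means with exact known ratios and no noise, which checks the computation only.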

Additional observations from a re-analysis of the deposited data

How the results depend on the processing

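Of the alternatives for the ratios of the 7 transcripts, 1 moved a value beyond 1.5-fold, and none turned a direction. A pseudocount added to both means cannot turn a direction, and the MAPK table repeats the same values. Leaving out depth scaling multiplies every ratio by the same factor. The kept directions are therefore no test of the directions. With a pseudocount of 1, the ratio of P2ry14-001 was 0.265. At a fold of 2, 1 transcript of the 5 genes was higher in place of 2, and with the larger mean at 10 or more 1 was higher and 1 lower in place of 2 and 4. At a fold of 2, the other purinergic genes had 1 higher and 1 lower, and the calcium and G protein genes 4 higher and 0 lower. Without depth scaling the other purinergic genes had 1 lower in place of 3, and the calcium and G protein genes 0 lower in place of 2, because the factor of 1.16 took Adk, Ugp2, Plcg1 and Itpr2 under the fold of 1.5. The listed transcripts past the fold were 47.8% higher, 38.2% at a fold of 2 and 52.9% without depth scaling. No library could be left out in turn, since the tables hold group means. No paired analysis was possible because the tables hold no value per library and the labels give no replicate numbers.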

Other observations

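Caspase-1 inflammasomes can be activated downstream of purinergic channels. Of 11 inflammasome genes, 1 had a depth-scaled row, the adaptor Pycard, and it was lower with ATP. Pycard-001 had means of 3.32 with ATP and 9.71 in Control, 2.93-fold lower, and Pycard-002 of 1.25 and 4.06, 3.24-fold lower. The other 10 inflammasome genes have no row. Among 22 calcium-dependent kinases and related signalling enzymes, 2 had rows and both were higher. These 2 are among the 7 higher genes already counted in the 97 G protein and calcium genes. Over all 1875 gene symbols with depth-scaled rows, 48.4% had a transcript at least 1.5-fold higher and 50.9% one lower, so nothing is read from these counts. Camk1d-001, a calcium/calmodulin-dependent kinase, was 3.19-fold higher (22.1 and 6.92), and Dgke-001, a diacylglycerol kinase, was 1.99-fold higher (5.48 and 2.75).

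The 2 transcripts of Lrrc8d had ratios equal to 2 decimals, 1.82 each, and whether their reads can be told apart was not tested.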
